A study of Saccharomyces cerevisiae with 4 samples.

Results

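The genes described here encode adhesins, the proteins by which budding yeast cells stick to each other. They were chosen by symbol: the flocculins FLO9, FLO1, FLO5, FLO10 and FLO11, and the mating agglutinins AGA1 and SAG1. The chip's annotation holds 6 of these 7 genes, 4 flocculins and 2 agglutinins, among 353 named genes, and FLO11, also known as MUC1, was not analysed here. Each of the 6 genes has 2 spots, so 12 of the 896 spots of the chip are theirs. Their ratios were measured in Saccharomyces cerevisiae BY4741, a laboratory strain, with HOG1, which encodes the MAP kinase of the high osmolarity pathway, deleted. A culture in rich medium (YEPD) at 24 °C was split, 1 part was given 30 µg/ml of the chitin-binding dye Congo Red, which weakens the cell wall as it is built, and RNA of both parts was collected after 4 h. Treated and untreated RNA, both of the hog1 deletion strain, were hybridised together on each of 4 arrays, and a strain that keeps HOG1 was not analysed here. Separate cultures for the arrays are not named in the sources used here, so p-values reflect nothing beyond the scatter of these 4 arrays, and that scatter may be technical.

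Flocculins are mannoproteins anchored in the wall that bind mannose chains on neighbouring cells and so gather cells into flocs. FLO1, FLO5 and FLO9 encode closely related flocculins, FLO10 a more distant one that also serves in adhesion and filamentous growth. In strains derived from S288C, of which BY4741 is one, these genes are known to be mostly silent because the gene of their activator, FLO8, carries a nonsense mutation. Mating adhesins work between cells of opposite mating type: AGA1 encodes the wall anchor of a-agglutinin and AGA2 its binding subunit, and SAG1 encodes α-agglutinin, the partner on α cells. BY4741 has the a mating type, whereas α-agglutinin is the adhesin of α cells. These are facts of background. The arrays give ratios and no levels, so neither the silence of a gene nor the mating type could be checked in these data.

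All values below are log2 ratios between the channels as deposited, averaged over the spots of a gene on each array. Arrays 1 and 3 carried the treated RNA in channel 2, arrays 2 and 4 in channel 1. The sources used here do not give the numerator of the ratios, nor whether arrays 2 and 4 were turned before deposit. A ratio above 0 is read as higher after Congo Red on every array, and this direction is likely only: SLT2, the MAP kinase gene of the cell integrity pathway known to rise under wall stress, then has ratios of 1.42, 1.66, 1.65 and 1.64 on arrays 1 to 4. With the opposite numerator every higher value would be a lower one. HOG1 itself, which both RNAs lack by genotype, had ratios of 1.43, -1.73, -0.23 and 1.25, and since the position of its probe is not given here they do not check the deletion. The arrays were not centred, with medians over all spots of 0.01, -0.13, 0.22 and 0.07. Each gene was tested with limma against a ratio of 0, adjusted over the 348 genes with values on at least 3 arrays. For a single gene on 4 arrays, 0.125 is the smallest two-sided p of an exact sign-flip test.

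None of the 6 adhesin genes passed the test, whose threshold was an adjusted p of 0.05. Over all tested genes 20.7% passed, 17.0% as higher (59 genes) and 3.74% as lower (13 genes). At an unadjusted p under 0.05, 1 of the 6 genes (FLO10) was counted, against 32.5% of all tested genes. The mean log2 ratios of the 4 flocculins lay between -0.06 and 0.43, with a median of 0.23, against a median of 0.02 over all tested genes. Ordered from the highest mean down, the flocculins stood between places 90 and 214 of 348 and SAG1 at 183, while AGA1, measured on 3 arrays only, was last. The 95% intervals below give how large a change these arrays leave possible.

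FLO9 (YAL063C), a lectin-like flocculin gene close to the left end of its chromosome, was measured on arrays 1 to 4 at log2 ratios of 0.29, -0.21, 0.50 and 0.14. It was above 0 on 3 arrays and below it on array 2, which also has the lowest array median. Set against the other genes of the same array, FLO9 was higher than 66.5%, 43.9%, 67.2% and 55.0% of them, so it stood near the middle on each. Its mean was 0.18 ± 0.30 (SD, n = 4), a 1.13-fold ratio, and it did not pass (limma adjusted p = 0.474, unadjusted p = 0.284; exact two-sided sign-flip p = 0.375). The 95% interval of the mean ran from 0.87-fold to 1.48-fold. Spot 605 had 0.33, -0.19, 0.53 and 0.08, and spot 606 had 0.25, -0.22, 0.46 and 0.20, with the same signs. The SD between the spots averaged 0.05 over the arrays, close to the chip's median of 0.06, while the SD of FLO9 between arrays, 0.30, was close to the chip's median of 0.28. The spread of FLO9 was thus larger between arrays than between its spots.

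FLO1 (YAR050W), the flocculin gene best known for strong flocculation, split by channel order. Its log2 ratios were 0.89, -0.91, 0.59 and -0.83 on arrays 1 to 4. Both arrays with treated RNA in channel 2 were high and both with treated RNA in channel 1 were low, by a similar amount, and these pairs did not overlap, as was so for 183 of the 328 genes with values on all arrays (55.8%). The mean was therefore close to 0 with a wide spread, -0.06 ± 0.94 (SD, n = 4; limma adjusted p = 0.945), and its interval ran from 0.50-fold to 1.85-fold. In a second limma model with a coefficient for channel order (arrays 1 and 3 against 2 and 4), this coefficient was 0.81 for FLO1 (95% interval 0.52 to 1.09; limma adjusted p = 0.0135), which is a difference of 1.61 on the log2 scale, or 3.05-fold, between the orders. It passed for 6.61% of all tested genes (4.89% above 0 and 1.72% below), and among the 328 genes with values on all arrays 15, or 4.57%, had a coefficient at least as large in size. The treatment coefficient of FLO1 in that model was also -0.06 (limma adjusted p = 0.749). Arrays of the same channel order were also more alike over the whole chip. Over all spots the ratios correlated at 0.77 (arrays 1 and 3) and 0.70 (arrays 2 and 4), and between orders at 0.07 to 0.23. Over named genes the correlations were 0.73 and 0.75 within an order and 0.26 to 0.44 between orders. The cause was not tested.

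The sign pattern of FLO1, above 0 on arrays 1 and 3 and below 0 on arrays 2 and 4, was shared by 45 of the 328 genes (13.7%), and the reverse pattern was shown by 17 (5.18%). From the ratios of such a gene alone, an effect of the channel and an effect of treatment on arrays deposited unturned cannot be told apart. Turning would apply to all genes of an array alike. As deposited, 140 of the 328 genes (42.7%) had 1 sign on all arrays, SLT2 among them. The cause of the FLO1 pattern was not tested. With arrays 2 and 4 turned in sign the mean of FLO1 was 0.81. The gene did not pass in that fit, which called 0 genes (limma adjusted p under 0.05; 33 at an unadjusted p under 0.05). On arrays 2 and 4 alone FLO1 passed as lower (-0.87, limma adjusted p = 0.0140), in a fit of 2 arrays that called 30.0% of its genes, 18.1% as higher and 11.9% as lower, and on arrays 1 and 3 alone it had 0.74 (adjusted p = 0.0610). One of its spot values, -1 for spot 608 on array 2, equals a ratio of 1 to 2. The other spot of FLO1 on that array had -0.82, so the low value there does not rest on it.

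**Figure D1:**
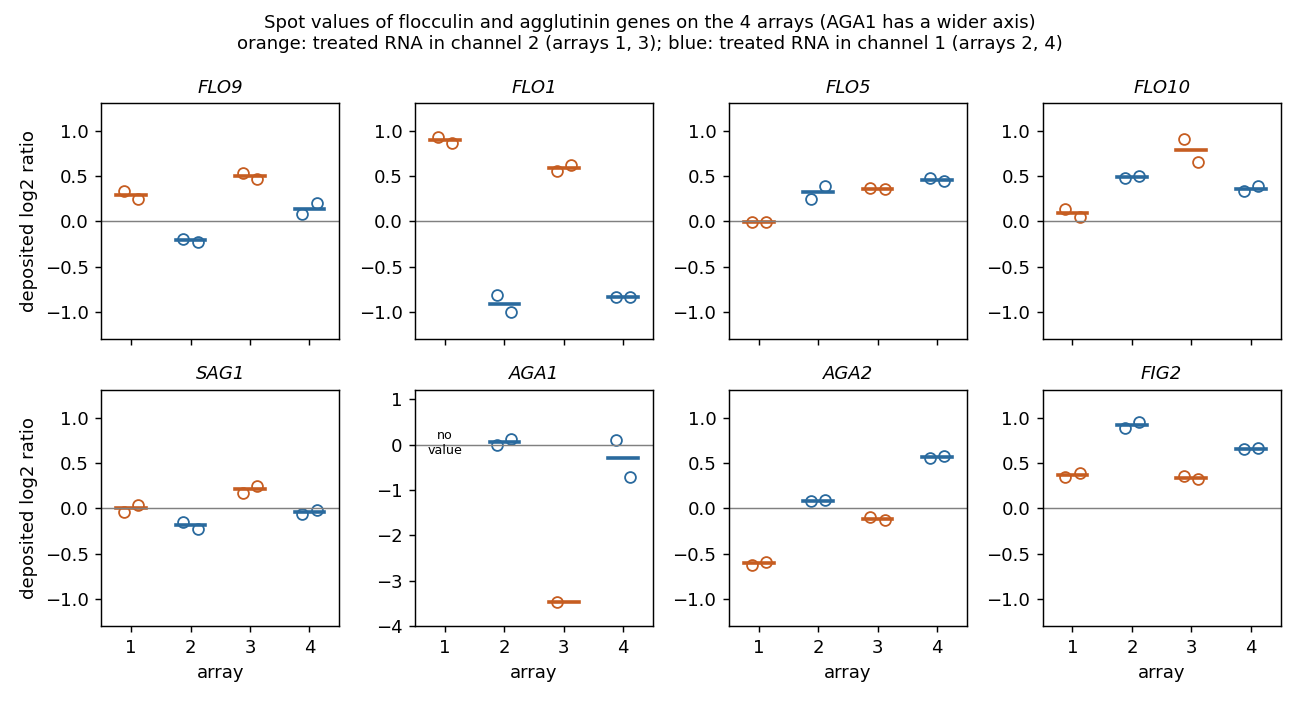
Deposited log2 ratio (vertical) of each spot (circles) and the mean of the spots (bars) on the 4 arrays (horizontal) for the flocculin genes, the agglutinin genes and FIG2, with a wider vertical axis for AGA1. The bars of FLO1 lie at 0.89 and 0.59 where the treated RNA was in channel 2 (orange). They lie at -0.91 and -0.83 where it was in channel 1 (blue). The bars of FLO9 stay between -0.21 and 0.50, and AGA1 has no value on array 1.

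FLO5 (YHR211W), a flocculin gene closely related to FLO1, had log2 ratios of -0.01, 0.32, 0.36 and 0.46. It was above 0 on 3 arrays and at 0 within 0.01 on array 1, and its channel order coefficient did not pass (-0.11, limma adjusted p = 0.650). The mean was 0.28 ± 0.20 (SD, n = 4), a 1.22-fold ratio with an interval of 0.97-fold to 1.52-fold, and it did not pass (limma adjusted p = 0.199). FLO10 (YKR102W), the more distant flocculin gene, was the one flocculin above 0 on all arrays, at 0.10, 0.49, 0.78 and 0.36. One sign on all arrays was seen for 140 of the 328 genes (42.7%). Its mean was 0.43 ± 0.29 (SD, n = 4), a 1.35-fold ratio with an interval of 1.04-fold to 1.75-fold. FLO10 missed the threshold after adjustment (limma adjusted p = 0.117, unadjusted p = 0.0318) and had the smallest exact p that 4 arrays allow, 0.125. With the coefficient for channel order its adjusted p was 0.0693, which also misses.

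Ordered by mean ratio the flocculins ran FLO10, FLO5, FLO9 and FLO1, but the mean difference between neighbours in this order was smaller than its SD over the arrays. Within arrays, 8 differences between pairs of adhesin genes were computed. The exact sign-flip test cannot pass 0.05 on 4 arrays, so it cannot show a difference here, and the Benjamini-Hochberg adjusted p of each was 0.5 or more. FLO10 minus FLO5 was 0.10, 0.16, 0.42 and -0.10, a mean of 0.15 ± 0.22 (SD, n = 4). FLO9 minus FLO10 was 0.20, -0.69, -0.29 and -0.22 on arrays 1 to 4, a mean of -0.25 ± 0.36 (SD, n = 4; exact two-sided sign-flip p = 0.250). FLO9 minus FLO5 was 0.30, -0.53, 0.13 and -0.32, above 0 on arrays 1 and 3 and below it on arrays 2 and 4, with a mean of -0.10 ± 0.39. FLO9 minus FLO1 was -0.60, 0.70, -0.09 and 0.97, so FLO9 was the lower one in 1 channel order and the higher one in the other. FLO1 was the highest flocculin on array 1 and the lowest on arrays 2 and 4, and the range over the 4 genes was 0.42 on array 3 and 0.90, 1.39 and 1.29 on arrays 1, 2 and 4. FLO1, FLO5 and FLO9 are near-identical over long stretches, and the specificity of the probes for each of them is unknown here, so their single ratios are uncertain as measures of single genes. The ratios of the probes were not alike: FLO1 minus FLO5 was 0.90, -1.23, 0.23 and -1.29 on arrays 1 to 4.

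Of the mating adhesins, SAG1 (YJR004C), the α-agglutinin gene, had ratios close to 0 on every array, -0.0025, -0.19, 0.21 and -0.04. These lie near the array medians given above, and SAG1 was higher than between 40.9% and 48.1% of the genes of each array. Its mean was -0.0047 ± 0.16 (SD, n = 4; limma adjusted p = 0.984), with an interval of 0.81-fold to 1.23-fold, the narrowest of the adhesin genes. FLO9 minus SAG1 was 0.29, -0.02, 0.29 and 0.18 on arrays 1 to 4, a mean of 0.18 ± 0.15 (SD, n = 4). FLO9 was the higher one on 3 arrays (exact two-sided sign-flip p = 0.250, where 4 arrays cannot give less than 0.125).

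AGA1 (YNR044W), the anchor of a-agglutinin, was the least well measured gene of the set. It had 5 of 8 possible spot values: none on array 1, -0.01 and 0.12 on array 2, -3.46 for a single spot on array 3, and 0.10 and -0.70 on array 4. Its spots agreed on array 2 and lay apart on array 4, with a mean SD between spots of 0.33 against the chip's median of 0.06. The value on array 3 equals the base-2 logarithm of 1 to 11, and 5.69% of the values of that array equal, within 0.00011, that of some ratio between different whole numbers no larger than 12. Signal intensities were not analysed here, so the brightness of the spot is unknown. The mean over 3 arrays was -1.23 ± 1.94 (SD, n = 3; limma adjusted p = 0.374), the lowest mean of the 348 tested genes, with an interval from 0.10-fold to 1.90-fold. Without array 3 the mean was -0.12 over 2 arrays and did not pass (limma adjusted p = 0.774). With the coefficient for channel order AGA1 passed as lower (-1.79, limma), beside 34.8% of all genes (25.0% higher, 9.77% lower). In that model array 3 is the single array of its order, so only arrays 2 and 4 add to AGA1's own estimate of spread. The eBayes step draws that estimate toward one shared by the tested genes, so the call rests in part on the spread of other genes. Since the size of the ratio rests on the value on array 3, no direction is given for AGA1.

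**Figure D2:**
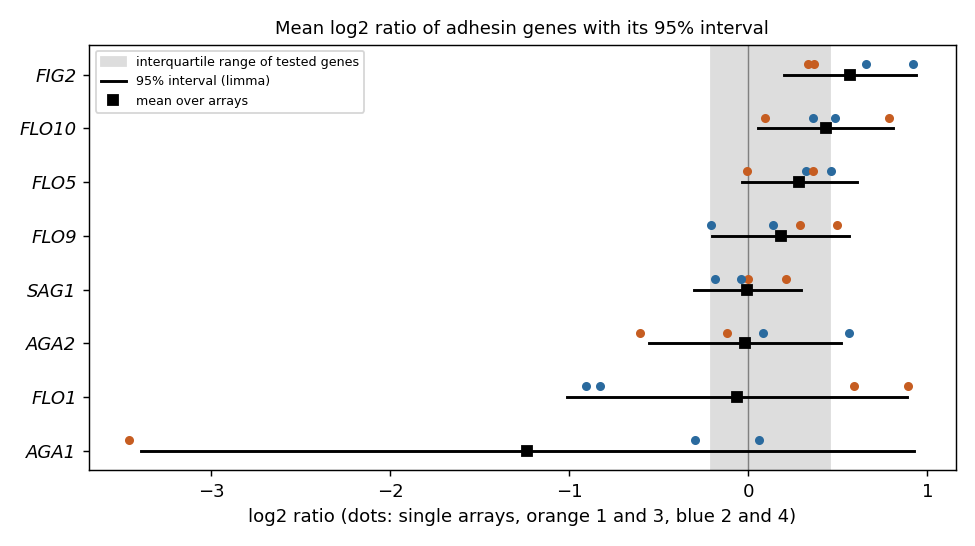
Mean log2 ratio (squares, horizontal axis) with its 95% limma interval (lines) and the single arrays (dots, orange for arrays 1 and 3, blue for 2 and 4) for the adhesin genes, over the interquartile range of all tested genes (grey). The intervals of the flocculins FLO5, FLO9 and FLO1 include 0, that of FLO10 runs from 0.06 to 0.81, and AGA1 and FLO1 have the widest intervals.

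The further genes of the agglutinin family on the chip are AGA2 and FIG2, and 1 of these 2 passed. FIG2 (YCR089W), which encodes a wall adhesin related to Aga1 and known to be induced by mating pheromone, had log2 ratios of 0.37, 0.92, 0.34 and 0.66, above 0 on all arrays. It rose 1.48-fold (mean 0.57 ± 0.27, SD, n = 4; interval 1.15-fold to 1.91-fold) at the very edge of the threshold (limma adjusted p = 0.04996), where 17.0% of all tested genes passed as higher. The call held under 7 of 18 alternatives. Among these 7, the median of its 2 spots, which equals their mean, and leaving out spot values of other genes could not alter its ratios. Alternatives that ended the call included centring the arrays (limma adjusted p = 0.0957) and robust variance estimation (0.0501). Leaving out any single array also ended the call (limma adjusted p between 0.0944 and 0.175). It held with the coefficient for channel order (limma adjusted p = 0.0108), in a model that called 25.0% of all tested genes as higher. By channel order, the call held on arrays 2 and 4 alone (0.79, limma adjusted p = 0.0228), where 18.1% of genes were called higher. It ended on arrays 1 and 3 alone (0.35, limma adjusted p = 0.503). AGA2 (YGL032C), the binding subunit of a-agglutinin, had -0.61, 0.08, -0.12 and 0.57. Its ratios were below 0 on arrays 1 and 3 and above 0 on arrays 2 and 4, the reverse of FLO1, with a mean of -0.02 ± 0.49 (SD, n = 4; limma adjusted p = 0.972) and a channel order coefficient of -0.34 that did not pass (limma adjusted p = 0.207). FIG2 minus AGA2 was above 0 on all arrays, with a mean of 0.59 ± 0.40 (exact two-sided sign-flip p = 0.125, the smallest possible).

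**Figure D3:**
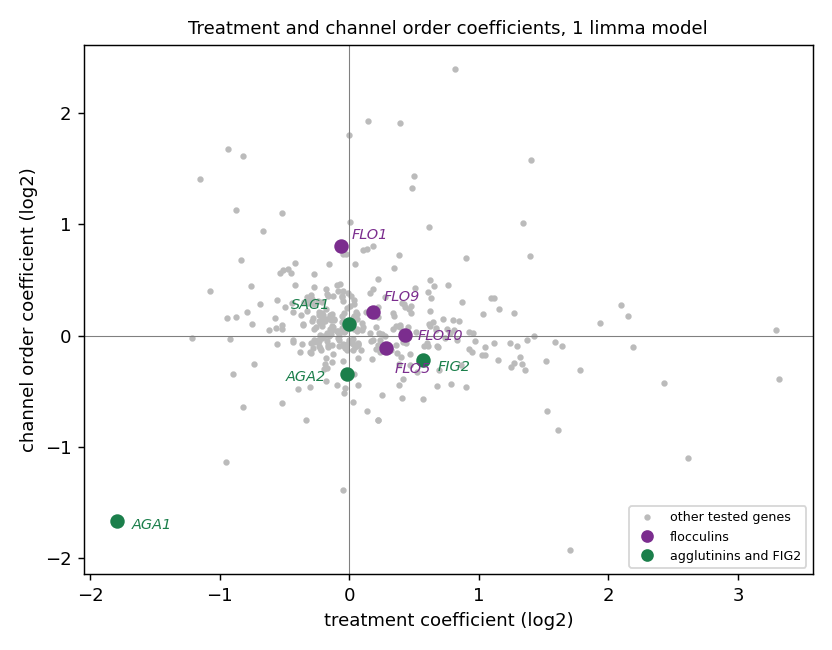
Treatment coefficient (horizontal, log2) against channel order coefficient (vertical, log2; arrays 1 and 3 against 2 and 4) of each tested gene in 1 limma model, flocculins in purple and agglutinins with FIG2 in green. FLO1 lies at a treatment coefficient of -0.06 and an order coefficient of 0.81, FLO10 at 0.43 and 0.01, and AGA1, which has 1 array in 1 of the orders, at -1.79 and -1.67.

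Regulators known to act on flocculin genes and filamentous growth did not pass either. Of 29 listed genes 10 were on the chip and tested, 0 were higher and 0 lower (limma), where 20.7% of all tested genes passed, and the median log2 ratio was 0.16. At an unadjusted p under 0.05 there were 2 of the 10, against 32.5% of all tested genes. The highest was SHO1, a membrane protein of the high osmolarity and filamentation pathways, at 0.26, 0.29, 0.45 and 0.65 (mean 0.41 ± 0.18, SD, n = 4; limma adjusted p = 0.0776). The lowest was TUP1, which encodes a corepressor that acts on many genes, FLO1 among them, at -0.09, -0.49, -0.29 and -0.63 (mean -0.37 ± 0.23; limma adjusted p = 0.121). CYC8, the gene of the partner of Tup1, had 0.88, 0.14, 0.52 and 0.09, a mean of 0.41 ± 0.37. With the coefficient for channel order SHO1 and CYC8 passed as higher (limma adjusted p = 0.0447 and 0.0433) and TUP1 as lower (0.0455), 3 of 10 genes beside 34.8% of all. STE12, the transcription factor gene shared by mating and filamentation, had 0.30, -0.31, 0.24 and -0.20, a mean of 0.01 ± 0.31, and like FLO1 it changed sign with channel order, without its order coefficient passing (0.26, limma adjusted p = 0.188). MSS11, an activator gene of flocculins, had no value on array 1 and -0.45, 0.71 and 0.88 on the others. STE20, the gene of a kinase known to serve the mating, filamentation and high osmolarity pathways, had -0.33, 0.01, -0.44 and 0.02, a mean of -0.18 ± 0.23 (limma adjusted p = 0.414). CYC8, STE12, MSS11 and STE20 were named for their known roles after their values were seen.

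Of 37 listed genes of the mating response 7 were on the chip and tested, of which 1 was higher and 0 lower, with a median of 0.01. Over all tested genes 17.0% were higher and 3.74% lower, so a single gene of 7 is near the share of the chip. The higher gene was PRM5, a membrane protein gene named for its induction by pheromone and also known as a target of the cell integrity pathway, at 1.92, 2.12, 2.25 and 2.47 (mean 2.19 ± 0.23, SD, n = 4; limma adjusted p = 0.00148). The other 6 did not pass. FUS1, which encodes a membrane protein of cell fusion and is a classical marker of the pheromone response, had -0.06, 0.30, 0.24 and 0.49, a mean of 0.24 ± 0.22 (limma adjusted p = 0.286). STE7, the gene of the MAP kinase kinase of the mating pathway, was the lowest at -0.28 ± 0.23 (limma adjusted p = 0.226). STE11 and STE50, genes of a kinase and its adaptor that the mating and high osmolarity pathways are known to share, had means of 0.36 ± 0.66 and -0.09 ± 0.19 (limma adjusted p = 0.423 and 0.704). The ratio of STE11 was high on array 2 alone, at 1.29 against 0.11, 0.32 and -0.26. PRM10, another gene named for pheromone, had 1.26, -0.59, 0.79 and -1.44, the same signs as FLO1, and its channel order coefficient of 1.02 passed (limma adjusted p = 0.0276). The spots of PRM10 lay apart, with a mean SD between spots of 0.77 against the chip's median of 0.06, so its ratios are uncertain. FUS1, STE11, STE50 and PRM10 were named after their values were seen.

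By root mean square difference over the 4 arrays, the gene most like FLO9 among the 327 others with 4 values was IPT1, an enzyme gene of sphingolipid synthesis, at 0.27, -0.04, 0.50 and 0.12 (difference 0.08). SFG1, a gene known from superficial pseudohyphal growth, followed at 0.13, and MCH5, a riboflavin transporter gene, at 0.15. None of the 3 passed the test. Of the other adhesins SAG1 was the closest to FLO9, in place 28 (difference 0.22), then FLO5 in place 82, FLO10 in place 113 and FLO1 in place 215. The genes most like FLO1 were GAS1, the glucan elongase gene (0.21), CLA4, a kinase gene of polarity (0.23), and MKK2, a kinase gene of the cell integrity pathway (0.33), each above 0 on arrays 1 and 3 and below 0 on arrays 2 and 4. FLO5 was closest to FUS1 (0.07), RTS3 (0.09) and the acid phosphatase gene PHO5 (0.10). FLO10 was closest to RTS3 (0.15), PSA1, an enzyme gene for the mannose donor of glycosylation (0.16), and TIR4, a wall mannoprotein gene (0.19), and FLO5 stood in place 10 from it. SAG1 was closest to IES1 (0.05), the sporulation kinase gene SMK1 (0.06) and MCH5 (0.08). All these profiles share the same 4 arrays and their medians, so a small difference describes the values only.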

How the data were processed

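Each of 4 arrays has a deposited log2 ratio between its channels for every measured spot, per the labels of 2 channels of total RNA and per the values. On arrays 1 to 3, between 5.69% and 9.23% of the values equal base-2 logarithms of ratios of small whole numbers. Array 4, whose values for the adhesin genes have fewer decimals, was not checked for this. For scanner, background correction, normalization and spot filter, the steps were not given in the sources used here. In all, the platform's annotation, which is old, names 1 gene for 724 spots, several for 10 and none for 162 of the 896. All 353 genes matched the R64 gene table, used for names only. Between 53 and 73 spots an array had no value.

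Spots of a gene were averaged on each array, and each gene's mean was tested against 0 with limma 3.58.1 (lmFit, eBayes; R 4.3.3). P-values were adjusted by Benjamini-Hochberg across all 348 genes with at least 3 values and a threshold of 0.05. A further model held a channel order coefficient. The test was run on simulated data with independent noise on each array and no effect of channel order. That simulation does not check the test for arrays that are more alike within a channel order, as these are. The number of arrays limits the precision. Figures used matplotlib 3.10.9 in Python 3.11.15.

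The members and lists were chosen with earlier results of these data known. Named genes were the members, the 3 nearest genes of each with 4 values, and, of each list, the genes past the test with the highest and lowest. HOG1 and SLT2 were added as checks, and other genes are said to have been named after their values were seen. Alternatives tried were centring and scaling, the other turning, a channel order term, each order alone, spots singly or by their median, other limits on missing values, robust variance, array weights and each array left out.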

Additional observations from a re-analysis of the deposited data

How the results depend on the processing

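Of the 6 adhesin genes, FLO9, FLO5, FLO10 and SAG1 passed the limma test under none of the alternatives. FLO10 was above 0 on every array, so alternatives that only leave out, weight or select arrays could not turn its sign. It stayed above 0 in all 18 of its alternatives, at 0.0086 with arrays 2 and 4 turned in sign. The lowest limma adjusted p of FLO10 was 0.0693. FLO9 was below 0 on arrays 2 and 4 alone (-0.034) and above 0 otherwise. With arrays 2 and 4 turned in sign, the mean was -0.11 for FLO5, 0.11 for SAG1 and -0.22 for FIG2. For FLO1 it was then 0.81. The mean of FLO1 was 0.74 on arrays 1 and 3 alone, and the gene passed as lower on arrays 2 and 4 alone (-0.87). SAG1, close to 0, changed sign on arrays 1 and 3 alone (0.10) and with array weights (0.0040). AGA2 changed sign on arrays 2 and 4 alone (0.32) and with array weights (0.033). AGA1 passed with a channel order term (-1.79) and had no value for 4 arrays required, for arrays 1 and 3 alone, or, with 3 arrays required, without its single spot value on array 3. Without array 3 and with 2 arrays accepted it did not pass (-0.12). Without 1 array in turn, accepting genes with 2 of the remaining 3 values, the mean ran from 0.07 to 0.31 for FLO9, -0.38 to 0.22 for FLO1, 0.23 to 0.38 for FLO5, 0.31 to 0.54 for FLO10, -1.88 to -0.12 for AGA1, -0.077 to 0.056 for SAG1, -0.21 to 0.18 for AGA2 and 0.45 to 0.65 for FIG2. FLO1 was above 0 without array 2 (0.22) or array 4 (0.19), SAG1 likewise (0.056 and 0.0071), and AGA2 without array 1 (0.18) or array 3 (0.014). The number of genes called on the chip was 72, and 0 with arrays 2 and 4 turned, 121 with a channel order term, 130 for spots tested singly (counted as spots) and 27 to 55 with an array left out (27 without array 3, 37 without array 1 and 43 without array 4). Higher genes were 81.9% of the calls, against 72.3% after centring (60 higher, 23 lower), 72.7% after centring and scaling, 71.9% with the order term, 60.4% on arrays 2 and 4 alone (61 higher, 40 lower) and 88.9% to 94.6% with an array left out, where 2 to 5 genes were lower in place of 13. Leaving out the member values equal to a ratio of small whole numbers, chosen after seeing the data, kept the count at 72 and, with the order term, gave 120. For changes with a setting the cause was not tested. Each ratio compares both RNAs on the same array, so the test against 0 already pairs treated with untreated RNA. With 1 group of arrays, no further pairing was made. The depth behind the ratios is unknown, and signal over background was not analysed here.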
